A study of Daphnia magna with 24 samples.

Results

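Water taken downstream of the portal of Walker Mine, a copper mine in California, was compared with water taken upstream of the mine by its effect on gene expression in whole Daphnia magna, a small freshwater crustacean that is a standard animal of toxicity tests. The members of the comparison were chosen from the sample titles: 6 arrays of animals kept in portal water and 6 arrays of animals kept in upstream water, 12 of the 24 arrays of the series, or 6 of its 12 exposures. In both groups, adult females of a genetically homogeneous purchased stock, 14 to 16 days old, stayed in the field water for 24 h at 23.5 °C, and 10 to 15 animals were pooled and ground whole for each exposure. Portal exposures 1, 2 and 3 and upstream exposures 1, 2 and 3 were each hybridised on 2 arrays against RNA of unexposed animals kept in COMBO, a defined laboratory culture medium, and the second array had the 2 dyes the other way round. The 2 other waters, from below the tailings and from Little Grizzly Creek, enter here only where they bear on the comparison. The copper load is said to differ between sites, but no concentration is given, so the comparison is between named waters and not between doses.

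Copper is an essential cofactor of enzymes and becomes toxic in excess, when it binds to proteins it does not belong to and promotes oxidative damage. Animals hold it in check with metal-binding proteins such as metallothioneins, with transporters that export it, and with antioxidant enzymes. Water fleas filter their food from the water and take up dissolved metals through the gills and gut, which is one reason why they serve as sentinels of mine drainage. The array features carry identifiers such as A2A15 or P11DF3, the files do not pair them with genes, and 0 of the 7680 matched the RefSeq gene table, so none of these proteins can be looked up and features are described by their values alone. The RNA came from whole animals, so a changed amount of a transcript per cell and a changed number of cells of one type cannot be told apart.

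Each value below is the mean log ratio of an exposure over its 2 dye-swap arrays, in units read as log2, likely exposed over control, and a feature blank on either array was left out for that exposure. If the deposited ratios run the other way, every sign turns. Portal exposures 1, 2 and 3 held 6979, 7323 and 4531 values, and upstream exposures 1, 2 and 3 held 7056, 6969 and 6440. Portal exposure 3 thus had by far the fewest, with 41% of features blank. The correlation across features between both dye orientations of an exposure was 0.673, 0.673 and 0.616 in portal water and 0.714, 0.714 and 0.839 in upstream water. Of 30 pairs of these arrays with the same dye orientation, 2 correlated below -0.3. Both joined the first array of upstream exposure 2 with the first array of exposure 3, of portal (-0.331) or of upstream water (-0.353). No pair of the second arrays, with the dyes the other way round, fell below -0.3. The sign of the second upstream exposure is therefore not settled. For most results that rest on exposure number 2, values with it turned are given beside those as deposited.

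Portal water left a wider scatter of log ratios than upstream water in every exposure number. The SD across features was 0.605, 0.3 and 0.792 in portal exposures 1, 2 and 3, against 0.544, 0.282 and 0.577 in upstream exposures 1, 2 and 3. The second exposure was the narrowest at both sites. The mean excess of portal over upstream SD was 0.0981 units, which an exact permutation test of 3 against 3 exposures did not separate from 0 (two-sided p = 0.5, smallest possible 0.1), nor did the exact test within exposure numbers (two-sided p = 0.25, the smallest that 3 pairs allow). Restricted to the 4062 features measured in all 6 exposures the excess was 0.134 units (exact two-sided p = 0.4). The median dye-swap error was also larger in portal water in every number, at 0.113, 0.0777 and 0.213 units in the portal exposures and 0.0969, 0.0626 and 0.0784 units in the upstream exposures. It did not follow the SD throughout, since upstream exposure 3 had the widest scatter of its site and a smaller error than upstream exposure 1. Its part in the wider scatter was not tested.

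**Figure D1:**
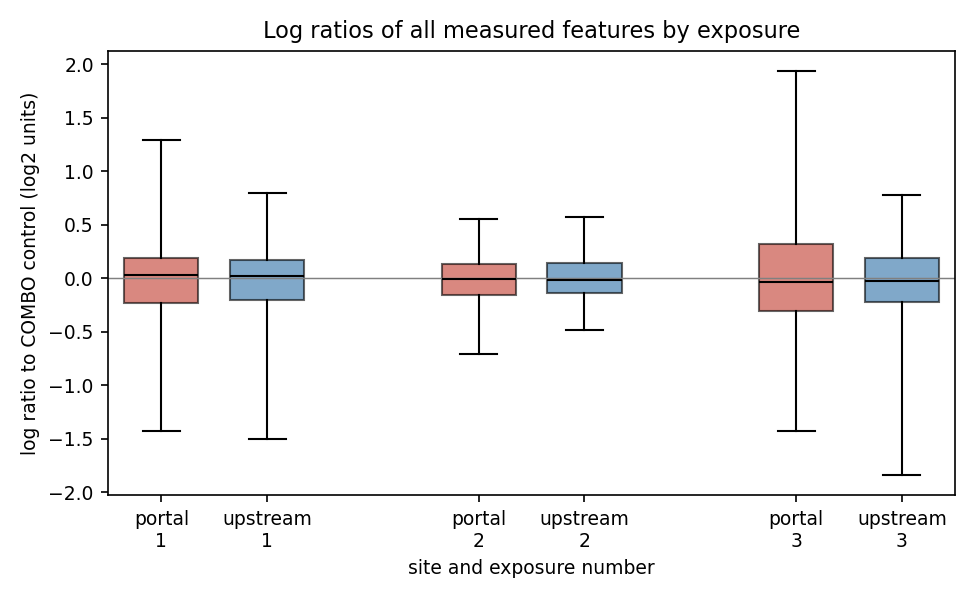
Log ratios to the COMBO control (log2 units, y axis) of all measured features in each portal (red) and upstream (blue) exposure, paired by exposure number. Boxes span the quartiles with the median as a line, and whiskers span the middle 95% of features; the medians lie near 0 and the second exposures are narrow at both sites, with SDs of 0.3 and 0.282.

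Same-numbered exposures of both waters resembled each other more, on average, than different exposures of one water did, with a mean correlation of 0.604 against 0.184. Across features, portal and upstream exposures of the same number correlated at 0.67, 0.356 and 0.786 for numbers 1, 2 and 3. Portal exposures of different numbers correlated at 0.383 (1 and 2), 0.485 (1 and 3) and -0.0018 (2 and 3), and upstream exposures at -0.0726, 0.574 and -0.264 for the same pairs, so the second pair stood no closer than some exposures of one water. Exposures of different waters and numbers correlated at -0.322 to 0.521, and portal exposure 2 stood closer to upstream exposure 1 (0.51) than to upstream exposure 2. After removal of each site's mean, every portal exposure correlated best with the upstream exposure of its own number, at 0.524, 0.647 and 0.819. After turning upstream exposure 2, these values were 0.474, 0.0588 and 0.65, and the direct correlation of the second pair was -0.356, so the pairing of number 2 rests on the deposited sign. A second fit treated the exposure numbers as pairs, beside the fit of all 4 sites that ignores them. These correlations run across features, which are not independent replicates, and carry no test.

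Neither fit called a feature between portal and upstream water. In the fit of all 4 sites by limma, 0 of 6504 features passed an adjusted p of 0.05, a background of 0% called, and the smallest adjusted p was 0.9998. Without adjustment, 199 features (3.06%) had p under 0.05, of which 153 were higher and 46 lower in portal water. In limma's paired fit of the differences within exposure number, again 0 of 6552 features passed (0%), with a smallest adjusted p of 0.605. There 533 features (8.13%) had an unadjusted p under 0.05, 311 higher and 222 lower in portal water. With upstream exposure 2 turned, 3.39% of features had such a p in the paired fit, and with exposure 2 turned at both sites 3.94%. The differences themselves were small for most features: the median absolute value was 0.116 units, and 95% of features lay between -0.538 and 0.802 units in the fit of 4 sites. Large fitted differences leaned to one side, since 79 features were higher in portal water by at least 1 unit and 18 were lower by as much. Exposures of 1 site are labelled as biological replicates.

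The paired count rested on exposure number 2. Without that number, limma called 21 of the 4280 features measured in numbers 1 and 3 (0.491%), and all 21 were higher in portal water, by 1.65 to 3.88 units with a smallest adjusted p of 0.0245. In exposure number 2, 20 of the 21 were measured, 8 of them higher and 12 lower in portal water, with differences from -0.651 to 0.575 units. Their medians were 1.16, -0.683 and 3.29 in portal exposures 1, 2 and 3, against -1.32, -0.582 and 0.624 in the upstream exposures. Since values in numbers 1 and 3 chose the 21, only number 2 is outside that choice. When upstream exposure 2 was turned, 0 of the 20 were higher in portal water in number 2, with a median difference of -1.26 units, against -0.112 units as deposited. Leaving out number 1 or 3 called 0 features.

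Within a single exposure number, one portal exposure stood against one upstream exposure, so values are given without a test. Differences of at least 1 unit numbered 208 higher and 67 lower in portal water in number 1 (4.1% of 6712 features measured at both sites), 9 higher and 155 lower in number 2 (2.41% of 6806), and 204 higher and 55 lower in number 3 (5.87% of 4414). Numbers 1 and 3 leaned to higher values in portal water and number 2, as deposited, to lower ones. With upstream exposure 2 turned, number 2 held 127 higher and 149 lower, and with exposure 2 turned at both sites 155 higher and 9 lower. Nearly all of these large differences had one sign in both dye orientations, 261 of 275 in number 1, 163 of 164 in number 2 and 241 of 259 in number 3. Over all features the median absolute difference was 0.149, 0.144 and 0.202 units for numbers 1, 2 and 3, against a median dye-swap error of the difference of 0.171, 0.118 and 0.238 units. The median difference was therefore of the size of this error. The error comes from the gap between the dye orientations, so it holds any dye effect that their mean removes. More than 2 errors were reached by 22.9%, 34.9% and 21.2% of features in numbers 1, 2 and 3. Across features, the differences of both dye orientations correlated at 0.405, 0.702 and 0.435.

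The largest single differences diverged between exposure numbers. P13AA7 was higher in portal water by 4.74 units in number 1, at 1.10 in portal against -3.63 in upstream water, the largest rise there with one sign in both dye orientations. The same feature differed by -0.129 units in number 2 and by 3.10 units in number 3. P5CC12 was highest in number 3, by 4.38 units, at 4.64 in portal against 0.254 in upstream water, where its dye orientations gave differences of 7.04 and 1.72. It was also higher in number 1, by 2.57 units, and differed by 0.134 units in number 2. A7C8 was lower in portal water by 3.79 units in number 1 and by 1.11 units in number 2, and was blank in number 3; its number 1 value averaged dye orientations that gave differences of -1.01 and -6.58. P6BC8 was lower by 3.11 units in number 3, where its dye orientations gave differences of -0.758 and -5.47, and differed by -0.00684 and 0.0694 units in numbers 1 and 2. In number 2 the extremes were A7N13, higher by 1.76 units (0.579 and 2.94 by dye orientation) and not measured at both sites in any other number, and A7E9, lower by 1.62 units. Both of the largest rises of numbers 1 and 3 were thus found in the other of these numbers and not in number 2.

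Numbers 1 and 3 shared much of their portal excess. Across the 4280 features measured in both, the 2 sets of differences correlated at 0.492 (Spearman's rho 0.27), and at 0.335 and 0.397 when the differences came from opposite dye orientations. Number 1 correlated with number 2 at 0.0378 (rho 0.174) and number 2 with number 3 at 0.196 (rho 0.157). The relation between numbers 1 and 3 lay mainly in the large values, since among the 3274 features within 0.5 units of 0 in both the correlation was 0.144. Among features higher in portal water by at least 1 unit in number 1 and measured in number 3, 62 of 97 (63.9%) were also higher by at least 1 unit in number 3, where 4.51% of all features were. Those 62 made up 32.1% of the features that far up in number 3. Of the features lower by at least 1 unit in number 1, 1 of 42 (2.38%) was that low in number 3, although 40 of the 42 had the same sign there. After turning upstream exposure 2, number 2 correlated at -0.182 with number 1 and at -0.335 with number 3, while the relation of numbers 1 and 3 does not involve it. These values run across features and carry no test.

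**Figure D2:**
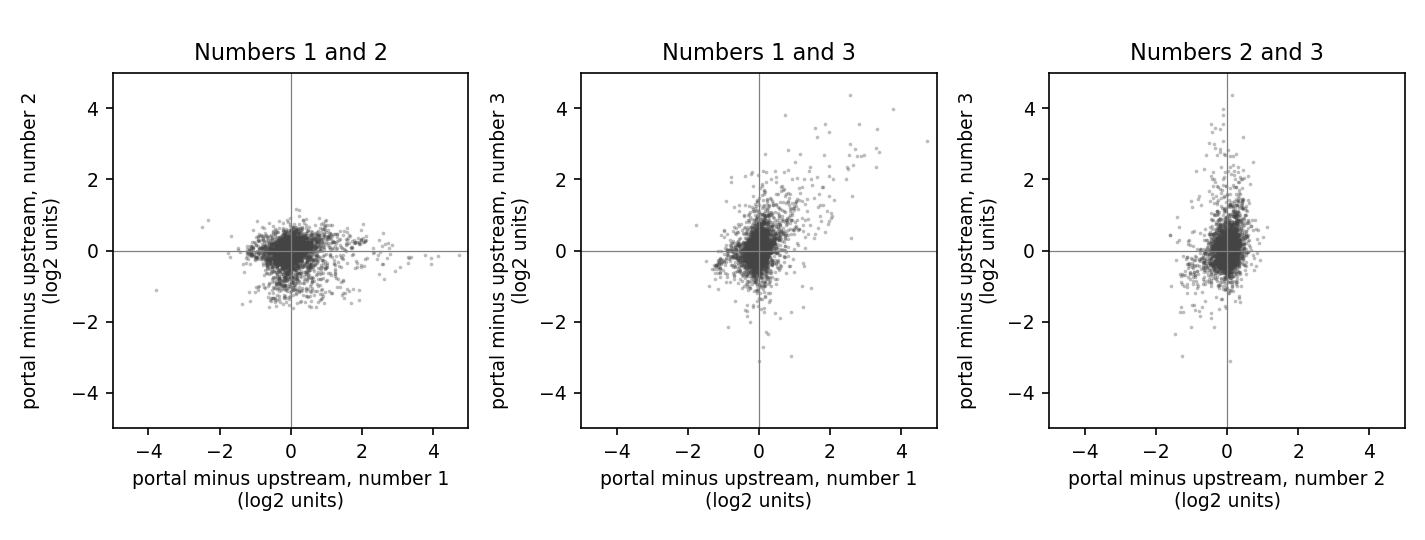
Portal minus upstream differences (log2 units on both axes) of single features, set for each pair of exposure numbers against each other, 1 point per feature measured in both. The arm of points to the upper right for numbers 1 and 3 (r = 0.492) is missing where number 2 is involved (r = 0.0378 and 0.196).

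The 62 features that stood at least 1 unit higher in portal water in both numbers 1 and 3 were of more than one kind. All 62 lay above the control in portal exposures 1 and 3. In upstream exposure 1, 4 of them lay above the control and in upstream exposure 3, 50 did. Of the 62, 9 (14.5%) had also risen against control in tailings water, where 6.12% of all tested features had, and 8 of these (12.9% of the 62) in Little Grizzly Creek water as well, where 2.17% had. These 9 had median log ratios of 1.66, 0.184 and 1.78 in portal exposures 1, 2 and 3, against -0.139, -0.173 and 0.417 in the upstream exposures, and in number 2 all 8 of those measured were higher in portal water, by 0.0823 to 0.524 units. The other 53 had medians of 0.957, -0.464 and 2.75 in the portal exposures, against -0.671, -0.527 and 0.515 in the upstream exposures. In number 2, 28 of the 53 were higher and 24 lower in portal water. When upstream exposure 2 was turned, 4 of the 8 and 7 of the 52 measured in number 2 were higher in portal water. Since values in numbers 1 and 3 chose the 62, only the values in number 2 and in the other waters are outside that choice.

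Differences of one sign in all 3 exposure numbers were found for 1429 of the 4062 features measured in all 6 exposures (35.2%), 739 higher and 690 lower in portal water. Independent signs, each equally likely, would give 25%. At least 0.25 units in all 3 numbers were reached by 107 features higher and 46 lower in portal water, at least 0.5 units by 12 and 6, and at least 1 unit by 0 either way. The 3 portal and the 3 upstream values did not overlap in 314 features (7.73%), 151 with portal water higher (3.72%) and 163 with portal water lower (4.01%). If the 6 values came in random order, a share of 0.1 of features would show no overlap. Only 5 of the 314 had a mean difference of at least 1 unit. With upstream exposure 2 turned, one sign in all 3 numbers was found for 1012 features (24.9%), 370 higher and 642 lower in portal water, and no overlap for 73 with portal water higher and 116 with portal water lower. These counts therefore depend on a sign that is not settled.

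Among features higher in portal water in all 3 numbers, A2A15 had the largest smallest difference, 0.785 units. Its log ratio was 0.618, 0.107 and 0.323 in portal exposures 1, 2 and 3, against -0.282, -0.678 and -0.527 in upstream exposures 1, 2 and 3. The groups did not overlap, and all portal values lay above and all upstream values below the control. The differences were 0.9, 0.785 and 0.849 units, a mean of 0.845 (SE 0.193 in the fit of 4 sites, adjusted p = 0.9998; SE 0.0859 in the paired fit, adjusted p = 0.605, both by limma). The 95% interval ran from 0.412 to 1.28 units in the fit of 4 sites and from 0.611 to 1.08 in the paired fit. A2A15 was also among the features that rose in the other waters, at 1.37 to 1.95 in tailings and 1.45 to 1.91 in Little Grizzly Creek water. It thus stood in portal water between its upstream and its tailings level, although no test called the portal difference. After turning upstream exposure 2, the groups overlap and the mean difference is 0.393 units.

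P11DF3 had the largest mean difference among features without overlap. It stood at 1.33, 0.475 and 2.33 in portal exposures 1, 2 and 3, against -0.152, 0.046 and 0.305 in upstream exposures 1, 2 and 3. The mean difference was 1.31 units (0.834 without portal exposure 3), with a 95% interval from 0.397 to 2.22 in the fit of 4 sites and an adjusted p of 0.605 in limma's paired fit. This interval does not allow for the choice of P11DF3 as an extreme of the same exposures. P11DF3 likewise rose in tailings water (2.17 to 2.57) and in Little Grizzly Creek water (1.59 to 2.56). Next came P7CF2, at 0.761, -0.177 and 1.97 in portal water, against -0.668, -0.268 and -0.386 in upstream water. Its mean difference was 1.29 units, and 0.733 without portal exposure 3. The groups were close in number 2, where they differed by 0.0906 units (-0.032 and 0.213 by dye orientation). P7CF2 was not called in tailings or Little Grizzly Creek water. A1D21 was higher in all 3 numbers by at least 0.718 units, at 0.901, 0.132 and 2.74 in portal water, against -0.119, -0.587 and 0.242 in upstream water, and its groups overlapped. Its mean difference of 1.41 units was 0.671 without portal exposure 3. In number 3 the dye orientations gave differences of 3.20 and 0.841 for P11DF3, 3.69 and 1.03 for P7CF2, and 3.79 and 1.20 for A1D21. With upstream exposure 2 turned, the mean differences were 1.34, 1.115 and 1.02 units for P11DF3, P7CF2 and A1D21. The portal and upstream values of P7CF2 then overlapped, and A1D21 was lower in portal water in number 2.

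Among features lower in portal water in all 3 numbers, A6L20 and P2BG5 had the largest smallest differences, 0.878 and 0.674 units. The log ratio of P2BG5 was -1.65, -0.722 and -0.946 in portal exposures 1, 2 and 3, against -0.742, 0.311 and -0.272 in upstream exposures 1, 2 and 3. Within each number it was lower in portal water, by 0.91, 1.03 and 0.674 units, while the ranges of the groups overlapped. In number 1 its dye orientations gave differences of -0.475 and -1.34. The mean difference of -0.872 units had a 95% interval from -1.17 to -0.573 in the paired fit and from -1.98 to 0.24 in the fit of 4 sites. These intervals do not allow for the choice of P2BG5 as an extreme of the same exposures. Its mean difference was -0.665 units with upstream exposure 2 turned and -0.184 units with exposure 2 turned at both sites. A6L20 was lower by 0.878, 1.00 and 2.16 units, at -1.77, -0.546 and -3.64 in portal water, against -0.89, 0.457 and -1.48 in upstream water. The dye orientations of A6L20 gave differences of -0.119 and -1.64 in number 1 and of -3.31 and -1.01 in number 3. Its mean difference of -1.35 units was -0.519 without portal exposure 3, -2.07 without portal exposure 2 and -0.8 without upstream exposure 2. It was -1.04 with upstream exposure 2 turned and -0.679 with exposure 2 turned at both sites. The 2 largest mean falls without overlap were A6A23 and P10BH8. A6A23 stood at -0.468, 0.382 and -0.341 in portal water, against 0.756, 0.544 and 0.448 in upstream water, and P10BH8 at -0.391, 0.318 and -0.185 in portal water, against 0.863, 0.663 and 0.327 in upstream water. In both, number 2 gave the smallest difference, -0.162 and -0.345 units. When upstream exposure 2 was turned, the portal and upstream values of both features overlapped, and the mean difference of A6A23 was -0.362 units, against -0.725 as deposited, and that of P10BH8 -0.261, against -0.703. Without number 1 the paired values were -0.475 and -0.428 units. None of these falls was called by limma, with an adjusted p of 0.605 for each in the paired fit.

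**Figure D3:**
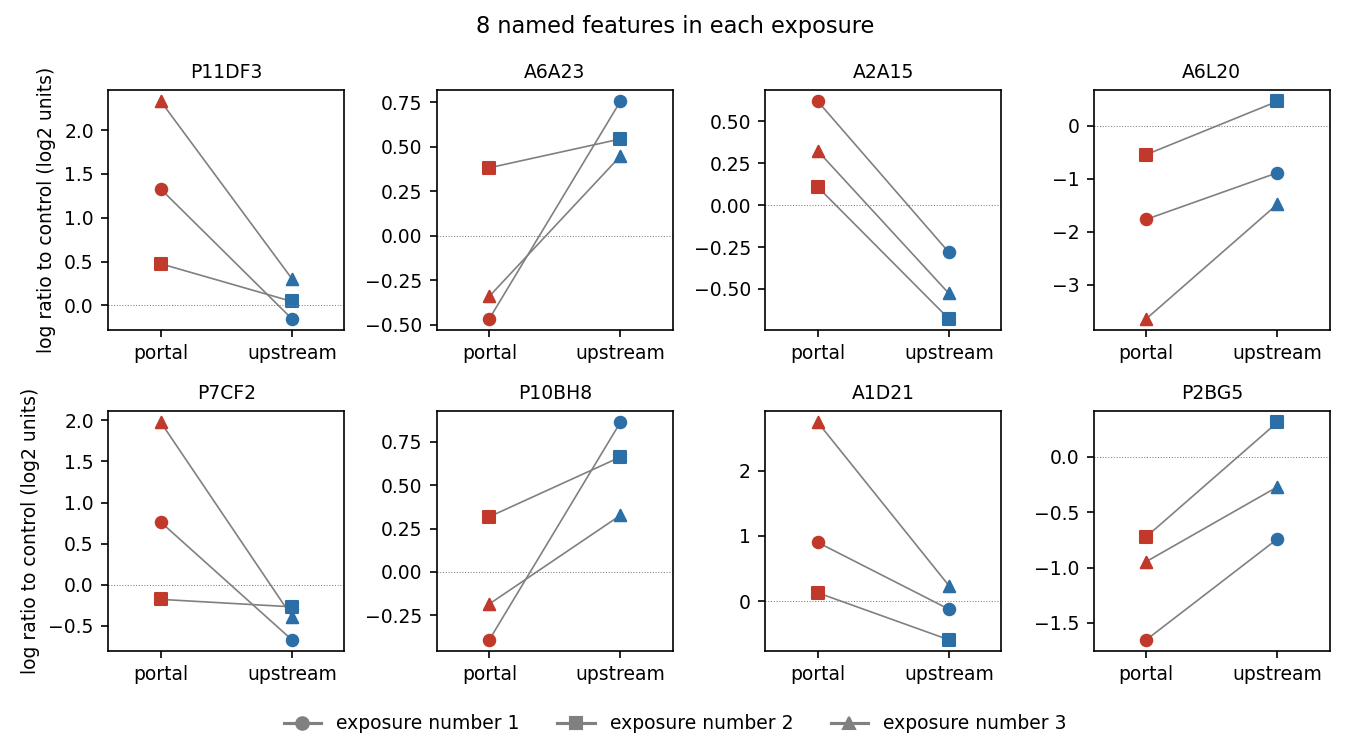
Log ratio to the COMBO control (log2 units, y axis) of the 8 features chosen for no overlap (P11DF3, P7CF2, A6A23, P10BH8) or for one sign in all exposure numbers (A2A15, A1D21, A6L20, P2BG5), in portal (red) and upstream (blue) exposures, with a line joining each exposure number. The lines of A2A15 run parallel, with differences of 0.9, 0.785 and 0.849 units. Number 2 (squares) gives the flattest line for P11DF3, P7CF2, A6A23 and P10BH8. Values are as deposited.

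Strong risers of Little Grizzly Creek water tended to stand higher in portal than in upstream water. Of 6504 features, 141 (2.17%) rose against control in creek water by limma at an adjusted p under 0.05, and 80 of these (1.23%) by at least 1 unit. The level in creek water chose them, while portal and upstream values entered only through the shared estimate of the spread and the filter on blank values. In the 80, the median log ratio was 0.969, 0.115 and 0.914 in portal exposures 1, 2 and 3, against 0.109, -0.117 and 0.209 in upstream exposures 1, 2 and 3. Above the control lay 78 of 80, 61 of 80 and 31 of 41 of them in the portal exposures, and 47 of 79, 24 of 74 and 47 of 72 in the upstream exposures. The portal excess over upstream had a median of 1.10, 0.216 and 0.685 units in numbers 1, 2 and 3, where all tested features had medians of -0.0169, 0.0202 and -0.000782. Portal water was higher in 93.7%, 87.8% and 92.5% of the members measured, against 46%, 54.6% and 49.8% of all tested features. In number 2 the excess was smallest, and there it rested on the deposited sign: with upstream exposure 2 turned its median was -0.0751 units and portal water was higher in 44.6% of the members. Over all exposures, the median difference of the list was 0.775 units, and 0.583 units with upstream exposure 2 turned. In all 141 risers, the median excess was 0.412, 0.123 and 0.356 units in numbers 1, 2 and 3. After quantile normalisation it was 0.362, 0.191 and 0.0645 units, so the excess in number 3 depended on the normalisation. Portal water was then higher in number 3 in 59.3% of those measured, against 67.9% as deposited. The 80 alone were not read after quantile normalisation. Some members had nearly the same values. P11CH10, P8BB11 and P10DH11 stood at 2.84, 2.87 and 2.81 in portal exposure 1 and at 0.746, 0.753 and 0.699 in upstream exposure 1. Whether such features stand for 1 transcript is not stated, so the members may not be separate genes and the shares may count repeats.

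Read feature by feature, the same list stayed below the threshold. Of the 80, 0 were called between portal and upstream water. With an unadjusted p under 0.05, 25 (31.2%) were higher in portal water, against 2.35% of all tested features. The list and these p-values share the estimate of the spread, so a feature with a small estimate is favoured in both. The 2 shares are therefore not a like comparison. Among the 38 members measured in all 6 exposures, 31 (81.6%) were higher in portal water in all 3 numbers and 9 (23.7%) without overlap, against 18.2% and 3.72% of the 4062 features so measured. None of the 38 was lower in portal water in all 3 numbers. With upstream exposure 2 turned, 13 of the 38 were higher in all 3 numbers. Of the 80, 77 were also among the features that rose in tailings water. Whether the sites used the same control RNA is not stated, and its part in these values was not tested.

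**Figure D4:**
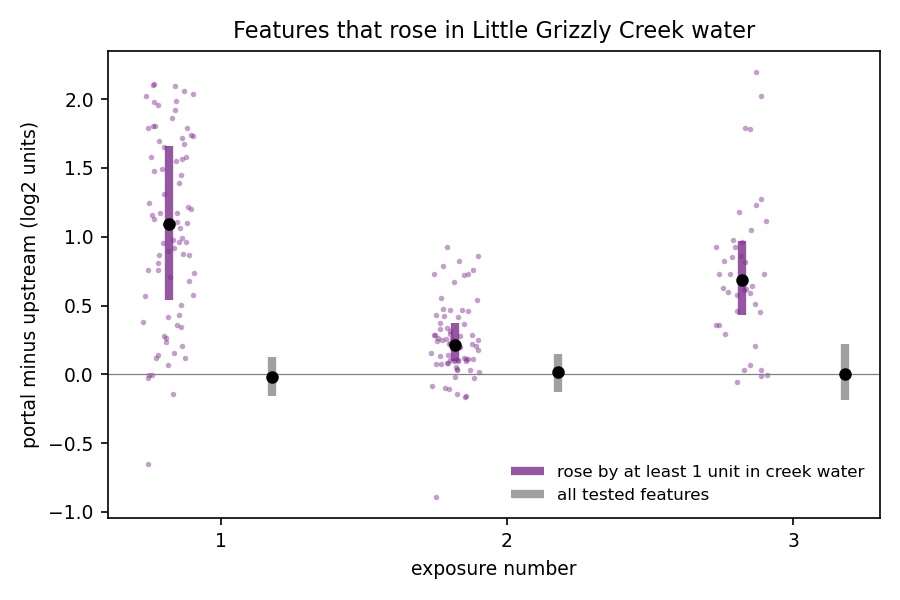
Portal minus upstream difference (log2 units, y axis) by exposure number for the 80 features that rose by at least 1 unit in Little Grizzly Creek water (purple points, 1 per feature) and for all 6504 tested features (grey). Thick bars span the quartiles and black dots mark the medians, 1.10, 0.216 and 0.685 units for the list and close to 0 for all features.

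The list of features that rose in tailings water was larger and less uniform. It held 398 features (6.12%), with portal minus upstream medians of -0.00486, 0.0758 and 0.0308 units in numbers 1, 2 and 3. Among the 122 that rose there by at least 1 unit (1.88%), the medians were 0.694, 0.127 and 0.405 units, and portal water was higher in 67.5%, 68.1% and 73.6% of those measured. Over the whole list of 398, portal water was higher in 49.1%, 69.5% and 56.5% of those measured. With an unadjusted p under 0.05, 9.8% were higher, against 2.35% of all tested features. This list too shares the estimate of the spread with those p-values. After turning upstream exposure 2, the shares in number 2 were 37.9% of the 398 and 56.9% of the 122. Features that fell in the other waters gave no single direction. For the 154 that fell in tailings water (2.37%), the medians were -0.222, -0.0338 and 0.144 units, and for the 123 that fell in Little Grizzly Creek water (1.89%) they were -0.23, 0.0285 and 0.131 units. Number 1 was lower and number 3 higher in portal water in both lists. When upstream exposure 2 was turned, the medians in number 2 were -0.395 and -0.411 units, and those of the overall difference -0.227 units for tailings and -0.26 for creek water, against -0.0909 and -0.104 as deposited.

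How large a difference between the waters the data exclude was read from the 95% confidence interval of each feature, which holds for 1 feature at a time. In the fit of 4 sites the interval reached a median of 0.369 units to either side of the estimate. The larger absolute bound, the smallest size that the interval excludes in both directions, had a median of 0.509 units, or 1.42-fold if the base is 2, and was 1.71 units or less, 3.27-fold, in 90% of features. For 4994 of 6504 features (76.8%) a difference of 1 unit, 2-fold, lay outside the interval in both directions. A difference of 0.5 units lay outside it for 48.8%, and one of 2 units for 92.8%. In the paired fit these shares were 51.9% at 0.5 units, 86.9% at 1 unit and 97.6% at 2 units of 6552 features. With pairs of one-sided limma tests and Benjamini-Hochberg adjustment over all features, a size of 1 unit was excluded for 5168 features (79.5%) in the fit of 4 sites and for 5915 (90.3%) in the paired fit. A size of 0.5 units was excluded for 3152 (48.5%) and 3528 (53.8%).

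**Figure D5:**
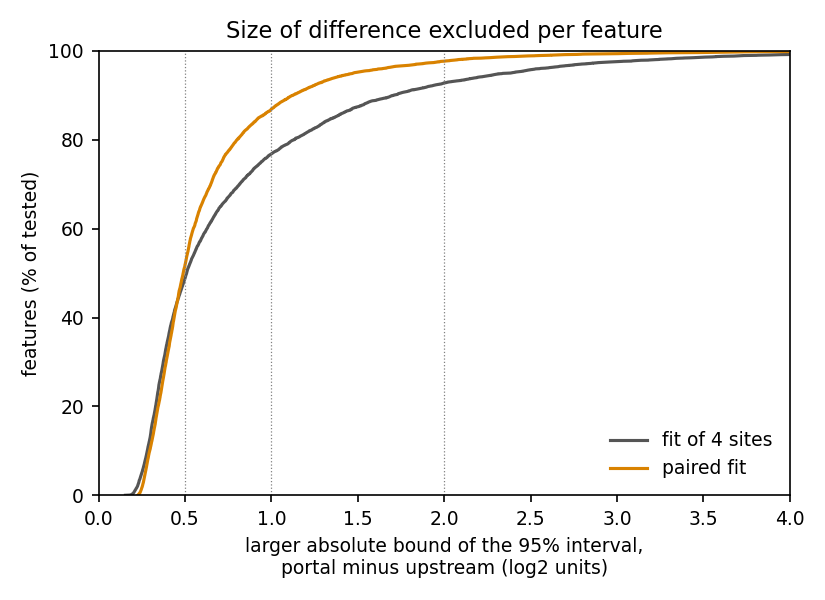
Share of tested features (%, y axis) whose 95% interval of portal minus upstream lies within the size on the x axis (log2 units), for the fit of 4 sites (grey, 6504 features) and the paired fit (orange, 6552 features). Dotted lines mark 0.5, 1 and 2 units; at 1 unit the curves stand at 76.8% and 86.9%.

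The remaining features had wider intervals and larger estimates. In the fit of 4 sites the interval of 1510 features included a difference of at least 1 unit, and that of 470 features (7.23%) one of at least 2 units. The 1510 had a median half-width of 1.16 units, against 0.317 units in the other 4994, and a median absolute difference of 0.397 units, against 0.0889. Of the 1510, 43.3% were blank in portal exposure 3, against 28.4% of the others. Among features blank in portal exposure 3, the interval lay within 1 unit for 68.4%, against 80.7% of those measured in it. The exclusion was less frequent among strong risers of the other waters. For the 80 strong risers of Little Grizzly Creek water, a rise of 1 unit in portal over upstream water lay outside the interval for 19 (23.8%), against 83.8% of all tested features. For the 122 strong risers of tailings water it lay outside for 52 (42.6%), and for the whole tailings list of 398 for 323 (81.2%). The fit's count of 0 differences therefore covers many features in which a difference of 2-fold was neither shown nor excluded.

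As deposited, large falls in number 2 were more frequent in some starts of the identifiers than in others. Of the 155 features lower in portal water by at least 1 unit there, 84 (54.2%) had identifiers that start with A4 or A7, as did 9.29% of all features measured in number 2, and 131 (84.5%) started with A, as did 31.8% of all. Of the 55 as low in number 3, 18 (32.7%) started with A4 or A7, against 6.23% of all features measured there. The median difference in number 2 was -0.281 units for A4 and -0.286 units for A7, and lay between -0.0685 and 0.0806 units for the other 18 of 20 starts. In A4 and A7, upstream exposure 2 had medians of 0.225 and 0.231 units and portal exposure 2 of -0.0968 and -0.0586 units. Their medians were -0.204 and -0.27 in portal exposure 1 and -0.436 and -0.577 in portal exposure 3. In upstream exposures they were -0.242 and -0.324 (exposure 1) and -0.456 and -0.452 (exposure 3). Only upstream exposure 2, as deposited, thus had medians above the control in these starts. With upstream exposure 2 turned, its medians change sign and lie below those of portal exposure 2. The lower values of A4 and A7 in number 2 thus rest on the deposited sign. The shares by start were not counted with it turned. In number 1 the medians of the differences were 0.0263 and 0.0218 units for A4 and A7, and in number 3 -0.113 and -0.189 units. The sources used here do not say what these starts stand for, and their part in the differences of number 2 was not tested.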

How the data were processed

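The authors deposited 1 log ratio per feature and array for 7680 features, treated here as log2 values although no base is stated; how the authors made these log2 ratios from the scans is not given in the labels. The scanner, background correction, normalisation and filters are not stated either. Precision is limited by how many arrays there are. The mean of both dye-swap arrays, which removes a dye effect, stands for an exposure. limma 3.58.1 in R 4.3.3 (lmFit, eBayes) fitted 1 mean per site to all 12 exposures for features with at least 2 values at each of the 4 sites. The paired fit used the portal minus upstream differences of exposure numbers 1, 2 and 3, for features with at least 2 differences. Adjusted p-values are Benjamini-Hochberg over all tested features, threshold 0.05. Same-numbered exposures share only a label number, and their pairing rests on deviations from the site means, which correlated at 0.524, 0.647 and 0.819, above the limit of 0.1 (number 2 at 0.0588 with upstream exposure 2 turned). Both fits were tested on simulated data. Alternatives varied the normalisation, blank values, weights, dye, pairing, the sign of exposure 2 and the exposures used. Tables and figures were made with Python 3.11.15, pandas 2.3.3, scipy 1.17.1 and matplotlib 3.10.9. Named features are, by rule, those without overlap and with the largest mean difference (2 each way), those of one sign in all numbers with the largest smallest difference (2 each way), and the extremes of each number with one sign in both dye orientations. The comparison, lists and rules were chosen with earlier results of these data known.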

Additional observations from a re-analysis of the deposited data

Results flagged for a closer look

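A2A15 lay above the control in all 3 portal exposures and below it in all 3 upstream exposures, with a difference of 0.845 units in the fit of 4 sites. The direct test of that difference did not call it (adjusted p = 0.605 in limma's paired fit, n = 3 pairs). Among the 4062 features measured in all 6 exposures, 12 had portal values above and upstream values below the control throughout and 27 the reverse, 0.96% together. A2A14 was another of the 12, with values close to those of A2A15. It stood at 0.628, 0.132 and 0.0912 in portal exposures 1, 2 and 3, against -0.366, -0.725 and -0.484 in the upstream exposures. Whether A2A14 and A2A15 stand for 1 transcript is not stated. With upstream exposure 2 turned, A2A15 no longer lies on opposite sides of the control.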

How the results depend on the processing

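In the fit of 4 sites no feature was called under any of 20 alternatives, among them the replicate block, with 0 calls, the random effect of exposure number, quantile normalisation, a dye term, array weights, the turned second exposure and each exposure left out. The smallest adjusted p among them was 0.0507, without portal exposure 2. The share of features with an unadjusted p under 0.05 ran from 0.646% with exposure 2 turned at both sites to 8.19% with portal and upstream only and the replicate block, a change by over 1.5 times from 3.06%. The paired count of 0 held under 8 of 9 alternatives. The paired share with an unadjusted p under 0.05, 8.13%, ran from 3.39% with upstream exposure 2 turned to 10.4% with differences in all 3 numbers. Leaving out a number gave 0 to 21 calls, with 21 without number 2. The replicate block changed no call. The share of intervals within 1 unit lay between 72.1% and 85.8% over 21 alternatives of the fit of 4 sites, and between 58.2% (no moderation) and 90.2% over 9 of the paired fit. The median difference of all risers of tailings water was 0.0507 units, 0.415 for those of at least 1 unit and -0.00182 for those measured in all 6 exposures. Turning exposure 2 in the lists and counts was added after seeing the data: that median was 0.00691 with upstream turned and -0.00372 with both sites turned, and one sign in all 3 numbers held for 22.3% of features with both turned. For risers of Little Grizzly Creek water it was 0.292, and 0.775 for those of at least 1 unit. Over 355 values of named features 351 kept their sign. Several alternatives cannot move the estimate of a fully measured feature: P11DF3 stayed at 1.31 units with the replicate block and with the dye term. The named features were also chosen as extremes, so this count cannot show stability. P6BC8, at -1.02, ran from -1.77 to 0.228 in the fit of 4 sites with an exposure left out and from -1.56 to 0.0313 in the paired fit with a number left out, turning without portal exposure 3 and number 3, and A7E9 to 0.16 with array weights and 0.256 with exposure 2 turned at both sites. The cause was not tested.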
